A study of Homo sapiens with 12 samples.

Results

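The RNA ends described here lie on the minus strand of the mitochondrial chromosome between positions 411 and 16019 of hg19, whose mitochondrial sequence has 16571 nt. Every poly(A) site in that stretch with at least 1 read in any library was taken. The bounds are positions, but the stretch was chosen with earlier results of these data known. The rule that set it also named sites 3250, 4402, 7516 and 9244. In the pull-down experiment 4770 of 640413 sites qualified (0.745%), with 562223 reads, and in the fraction experiment 1327 of 189010 sites qualified (0.702%), with 39282 reads. The segment from 14000 to 14680, which covers the MT-ND6 gene, held 514 of the pull-down sites and 41773 of their reads. MT-ND6 stands below for all ends in this segment. Which of them are ends of the ND6 mRNA was not determined, so their sum is not the level of that mRNA. The other 4256 sites, with 520450 reads, lie mostly opposite the genes that are read from the other strand and are called antisense sites. Sites in tRNA genes of the minus strand itself were not separated from them. In the fractions the MT-ND6 segment held 311 sites and the antisense sites numbered 1016. Most sites were thin: 855 of the 4770 had 100 reads or more over the 8 pull-down and input libraries, and 351 had a single read.

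Both strands of the human mitochondrial genome are transcribed as long precursors that run through many genes. The precursor that starts at the light-strand promoter carries a single mRNA, that of ND6, a membrane subunit of respiratory complex I, together with a minority of the tRNAs, and otherwise consists of sequence complementary to the mRNAs and rRNAs of the heavy-strand promoter. Transfer RNAs punctuate the precursors, and their excision by RNase P and ELAC2 frees the ends of the RNAs between them. The complementary RNA is normally removed by the degradosome of the helicase SUPV3L1 and the nuclease PNPT1, helped by the RNA-binding protein GRSF1, and double-stranded mitochondrial RNA that escapes to the cytosol is a ligand of innate immune sensors. The ND6 mRNA has been described as having little or no poly(A) tail, unlike the other mitochondrial mRNAs, and the assay used here sees only RNA with a tail. Staufen1 (STAU1), the protein pulled down, binds double-stranded RNA.

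All cells were HEK293T, an established line derived from human embryonic kidney. A STAU1-knockout clone (C8), made by double nicking with Cas9n, transiently expressed either STAU1-FLAG or FLAG-GFP, so the STAU1 and the GFP groups share the knockout and all STAU1 in them is the tagged protein from the plasmid. Poly(A)+ RNA was sequenced by 3'READS+, which reads the last stretch of an RNA before its tail, both after pull-down with an antibody against FLAG (IP) and in the total lysate (input) of each, with 2 replicates in each of the 4 groups. In the other experiment, cytoplasmic and polysomal poly(A)+ RNA of the untransfected knockout and of the isogenic control C9, labelled wild type, was sequenced in 1 library each. The FLAG-GFP pull-down shows what the antibody recovers without STAU1. The labels do not say that the replicates came from separate cultures, so p-values measure the spread between these libraries, which may be technical. Each genotype of the fractions is 1 clone.

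The pull-down table had 5567893 to 9655646 reads in the 4 input libraries, 6212606 and 5727812 in the STAU1 pull-downs and 1291888 and 1245270 in the GFP pull-downs, so values of the GFP pull-down are the least precise. The fraction libraries had 2799226 to 3483937 reads. Levels are normalised read counts per library total (CPM, the usual unit) after scaling by the TMM method, which places most nuclear sites near no change. The median site of all 33744 tested still stood at a log2 change, pull-down over input, of 0.12 with STAU1 and -0.16 with GFP, and at 0.30 in the difference of these 2 changes, called the double ratio below, and the values that follow are to be read against these medians. A site, window or sum is said to have changed where the edgeR quasi-likelihood test over the whole table gave a Benjamini-Hochberg adjusted p under 0.05.

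Reads of the minus-strand stretch were not spread evenly. The 10 sites with the most reads held 35.9% of them. Site 14744 alone held 11.5%, site 3250 held 7.56%, site 7516 held 5.07% and site 4402 held 2.82%. From position 3000 downward in the direction of transcription the signal nearly ended: the windows 2000 to 2999, 1000 to 1999 and 411 to 999 held 0.606, 0.300 and 0.348 reads per nt over the 8 libraries, against 59.9 reads per nt in the window 3000 to 3999 just before them. The densest stretch was 14681 to 14999, immediately upstream of the MT-ND6 segment, with 251 reads per nt, of which site 14744 made up 80.7%. The MT-ND6 segment had 61.3 reads per nt, close to the 62.7 of the window 13000 to 13999 that follows it.

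**Figure D1:**
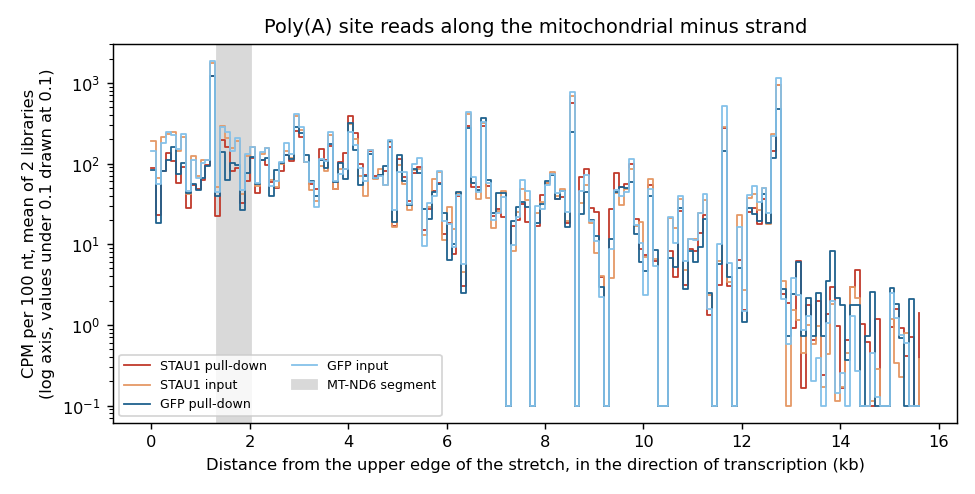
Reads along the mitochondrial minus strand, from the upper edge of the stretch (position 16019) in the direction of transcription, in kb; the y axis is the mean CPM of 2 libraries per 100 nt on a log axis, 1 line per group, and the MT-ND6 segment is shaded. The highest peak lies just before the shaded segment, and beyond the peak at 12.77 kb the signal drops from 59.9 to 0.606 reads per nt between neighbouring windows of 1000 nt.

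The end at 14744 was sharp. It held 96.4% of the minus-strand reads within 12 nt of it, while the highest site of the MT-ND6 segment, 14110, held 52.5% of those around it and the next 4 sites of that segment by reads held 21.4% to 31.6%. Among the antisense sites, 11540 held 75.7%, 13044 held 63.6% and 11971 held 53.0% of the reads within 12 nt. By textbook maps of the mitochondrial genome, 14744 lies at the upstream edge of the tRNA-Glu gene, 7516 at that of tRNA-Ser(UCN), 4402 at that of tRNA-Gln and 5828, the leading site of the window 5000 to 5999 with 37.9% of its reads, at that of tRNA-Cys. All 4 of these tRNAs belong to the light-strand-promoter transcript, so these ends are placed where excision of a tRNA would leave the 3' end of the RNA before it. Site 3250 lies opposite the tRNA-Leu(UUR) gene, where the terminator bound by MTERF1 is known. No annotation of hg19 was used here, so these placements are background.

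Some of these ends lie opposite strong ends of the plus strand. Within 24 nt of site 3250 the plus strand carried 317575 reads, against 42486 at the minus-strand site, and within 24 nt of 14744 it carried 8665 against 64729. It carried 145 reads near 7516 and 0 near 4402. Of the 20 regrouped minus-strand ends (explained below) with the most reads, 2 lay within 24 nt of 1 of the 20 strongest plus-strand sites. Whether reads of one strand were counted on the other was not tested. Around 3250 the plus-strand reads had means of 1828 CPM in the STAU1 pull-down against 9824 in its input, and of 1892 in the GFP pull-down against 9784, log2 ratios of -2.43 and -2.37. The minus-strand site itself stood at 0.03 with STAU1 and at -1.36 with GFP, so it too was lower in the GFP pull-down.

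The way the deposited table lists sites bears on every count of sites. On the nuclear chromosomes, neighbouring sites on a strand are at least 25 nt apart with 40 exceptions in 634223 gaps. On the mitochondrial minus strand this held only up to position 9629. From 9703 upward nearly every nucleotide is a site of its own (median gap 1 nt), and 4580 of the 4770 sites, with 65.1% of the reads and the whole MT-ND6 segment, lie there. In the fractions the change came at 14213, above which lay 1038 of the 1327 sites. Results are therefore given for the deposited sites, for sums and for regrouped sites. Sums over the MT-ND6 segment, over all antisense sites and over windows of 1000 nt do not depend on the grouping. Regrouping, chosen after the tables were opened, joined to each strongest site its neighbours within 24 nt. This left 382 regrouped sites, 21 of them in the MT-ND6 segment, each named by its strongest position. Of the deposited sites 1794 passed the filter on low counts, 220 of them in the MT-ND6 segment, and of the regrouped sites 306 and 19.

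The MT-ND6 segment, summed, was lower in both pull-downs than in their inputs. It stood at 585 and 716 CPM in the STAU1 pull-downs against 965 and 1167 in their inputs. In the GFP pull-downs it stood at 540 and 558 CPM against 1160 and 1061. All 4 pull-down libraries were below all 4 input libraries. The log2 change was -0.72 ± 0.17 (SE, adjusted p = 0.0115) with STAU1 and -0.99 ± 0.17 (adjusted p = 0.0011) with GFP (edgeR). Both fell on the TMM scale and on library totals. Against the mitochondrial plus-strand reads the values were 0.76 and 0.52, the opposite sign, on a scale that moves the median of all rows above 0 as well. The call with STAU1 rested on 2 libraries: the adjusted p was 0.225 without replicate 1 of the STAU1 pull-down and 0.0796 without replicate 2 of the STAU1 input. The double ratio was 0.27 ± 0.23 (adjusted p = 0.73), near the 0.30 of the median site, so a difference between the STAU1 and GFP pull-downs was not detected for the sum. In the fit that holds both sums, 3.29% of all rows were higher and 3.26% lower with STAU1, 2.39% and 4.01% with GFP, 0.513% and 0.2% in the double ratio, and 0.00939% higher and 0% lower between the inputs.

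The antisense sites, summed, differed less from input. They stood at 9888 and 10556 CPM in the STAU1 pull-downs against 11557 and 12599 in their inputs, a log2 change of -0.25 ± 0.13 (adjusted p = 0.285). In the GFP pull-downs they stood at 9152 and 9105 CPM against 13976 and 11924, a log2 change of -0.48 ± 0.13 (adjusted p = 0.0308, edgeR). That call depends on the scale: the value was -0.36 (adjusted p = 0.093) with RLE size factors, -0.20 (0.429) on library totals and 1.03, the opposite sign, against the mitochondrial plus-strand reads. It also missed the threshold without replicate 1 of the GFP pull-down (adjusted p = 0.175), replicate 2 of it (0.0643) or replicate 1 of the GFP input (0.0541). The double ratio was 0.22 ± 0.18 (adjusted p = 0.699). The other mitochondrial RNA was further below its input on the TMM scale. As 1 sum, the plus strand stood at a log2 change of -1.51 ± 0.11 with STAU1 and -1.54 ± 0.11 with GFP, and the minus strand outside the stretch by -1.17 ± 0.12 and -0.98 ± 0.12. The antisense sites made up 20.9% ± 0.80 of the mitochondrial reads in the STAU1 pull-downs and 18.2% ± 0.78 in the GFP pull-downs, against 11% ± 0.76 and 11.2% ± 1.3 in the inputs (SD, n = 2). Per 100 plus-strand reads there were 37.3 to 45.3 antisense reads in the 4 pull-down libraries and 16.7 to 21.9 in the 4 inputs, and these ranges do not overlap. As a share of the whole library the antisense sites ranged from 1.00% to 1.12% in the pull-downs and from 1.04% to 1.29% in the inputs. With 2 libraries against 2 an exact permutation test cannot go below p = 0.33.

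**Figure D2:**
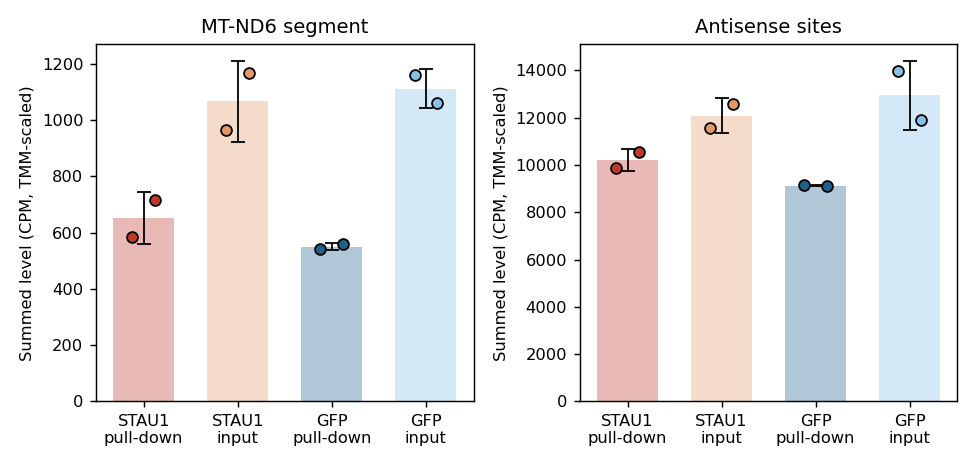
Summed level of the MT-ND6 segment (left) and of the antisense sites (right) in CPM after TMM scaling, for the 4 groups; points are the 2 libraries, bars their mean and error bars the SD. All 4 pull-down libraries lie below all 4 inputs in both panels, on this scale and not against the mitochondrial plus strand, and the gap is wider for MT-ND6.

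Within MT-ND6 the reads were spread over many ends. The strongest deposited site, 14110, held 3.67% of the segment's reads. It stood at 15.0 and 13.0 CPM in the STAU1 pull-downs against 38.2 and 52.7 in their inputs, and at 13.1 and 11.7 CPM in the GFP pull-downs against 37.1 and 49.3. It fell in both, by 1.70 ± 0.33 (adjusted p = 0.00348) and by 1.80 ± 0.37 (adjusted p = 0.00485) on the log2 scale (edgeR). Sites 14251, 14328 and 14558 did not pass the test in either pull-down as deposited; the SD of 2 libraries at 14251 ran from 1.32 to 11.6 CPM. After regrouping, 5 of the 19 tested MT-ND6 ends were lower with STAU1 and 7 with GFP, none was higher, and 18 of 19 had a value below 0 in each pull-down. Over all 31893 rows of that fit 3.32% were lower with STAU1 and 4.32% with GFP. The share of all rows below 0 is not given here, and neighbouring ends in the same libraries are not replicates. The median MT-ND6 end changed by -0.83 with STAU1 and -1.03 with GFP, against 0.13 and -0.14 for the median of all rows. These counts hold on the TMM scale. Against the plus-strand reads the value of each of the 5 that fell with STAU1 was above 0 except that of the end at 14276.

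The ends of MT-ND6 did not all behave alike. The end at 14505, with 17.7% of the segment's reads, stood at 113 and 138 CPM in the STAU1 pull-downs against 152 and 192 in their inputs, and at 35.3 and 54.7 in the GFP pull-downs against 222 and 202. It fell with GFP by 2.25 ± 0.25 on the log2 scale (adjusted p = 1.8e-05) and was -0.47 ± 0.23 with STAU1 (adjusted p = 0.258). The double ratio was 1.78 ± 0.34 (adjusted p = 0.0147, edgeR), and the GFP pull-down libraries were the lowest of the 8. The neighbouring end at 14478 followed the same order, with 44.0 and 42.5 CPM in the STAU1 pull-downs, 41.6 and 54.8 in their inputs, 16.6 and 17.5 in the GFP pull-downs and 65.5 and 53.1 in theirs, but its double ratio of 1.64 ± 0.42 missed the threshold (adjusted p = 0.079). The end at 14608, nearest to the upstream edge among the strong ones, had the other order: 50.8 and 63.4 CPM with STAU1 against 122 and 140 in input, and 113 and 80.9 with GFP against 145 and 102. It fell with STAU1 by 1.21 ± 0.25 (adjusted p = 0.00466) and was -0.36 ± 0.25 with GFP (adjusted p = 0.509), with a double ratio of -0.85 ± 0.35 (adjusted p = 0.342). The ends at 14110, 14251 and 14328 fell in both pull-downs, by 1.16, 1.08 and 1.00 with STAU1 and by 1.20, 1.17 and 1.03 with GFP. Without replicate 1 of the STAU1 pull-down these 3 and the end at 14276 missed the threshold with STAU1 (adjusted p = 0.163, 0.145, 0.432 and 0.155), and without replicate 1 of the GFP pull-down the first 3 and the end at 14558 missed it with GFP (0.0742, 0.0656, 0.461 and 0.0512). The falls of 14505 with GFP and of 14608 with STAU1 passed the test without any single library. As deposited, site 14505 alone had a double ratio of 1.36 ± 0.53 (adjusted p = 0.33), so its call needs the regrouping.

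Sites 3250 and 7516 were the antisense sites called in the double ratio. Site 3250 stood at 823 and 1025 CPM in the STAU1 pull-downs and at 929 and 886 in their inputs, which overlap. In the GFP pull-downs it stood at 432 and 456 CPM against 1334 and 938 in their inputs, with no overlap. Its log2 change was 0.03 ± 0.19 with STAU1 (adjusted p = 0.964) and -1.36 ± 0.19 with GFP (adjusted p = 0.000171), and the double ratio of 1.38 ± 0.27 passed the test (adjusted p = 0.0171, edgeR).

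Site 7516 had the same order. It stood at 526 and 571 CPM in the STAU1 pull-downs against 669 and 690 in their inputs, and at 247 and 224 CPM in the GFP pull-downs against 864 and 650. Its log2 change was -0.31 ± 0.18 with STAU1 (adjusted p = 0.367) and -1.68 ± 0.19 with GFP (adjusted p = 1.63e-05), and its double ratio of 1.37 ± 0.26 passed the test (adjusted p = 0.0141, edgeR). Without replicate 2 of the GFP pull-down that double ratio missed the threshold (adjusted p = 0.0529).

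Site 4402 varied more between replicates. It stood at 191 and 357 CPM in the STAU1 pull-downs and at 156 and 408 in their inputs, and at 108 and 179 CPM in the GFP pull-downs against 555 and 471. It fell with GFP by 1.84 ± 0.36 (adjusted p = 0.00318) and was -0.04 ± 0.34 with STAU1. Its double ratio of 1.79 ± 0.49 did not pass the test (adjusted p = 0.114).

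The strongest end, 14744, was lower in both pull-downs by like amounts. It stood at 1051 and 1134 CPM in the STAU1 pull-downs against 1554 and 1615 in their inputs, and at 1053 and 1106 CPM in the GFP pull-downs against 1909 and 1499. The change passed the test with GFP (-0.66 ± 0.16, adjusted p = 0.0186) and missed it with STAU1 (-0.54 ± 0.16, adjusted p = 0.0597, and 0.0472 after regrouping). The call with GFP was lost without replicate 1 (adjusted p = 0.211) or 2 (0.0743) of the GFP pull-down, whereas the falls of 3250, 4402 and 7516 with GFP passed the test without any single library. The double ratio was 0.12 ± 0.23 (adjusted p = 0.913). The difference between the double ratios of 7516 and 14744 was not tested.

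Site 9244, opposite the COX3 gene by textbook maps, passed the test with neither protein. It stood at 257 and 191 CPM in the STAU1 pull-downs, 242 and 265 in their inputs, 346 and 270 in the GFP pull-downs and 275 and 223 in theirs. Its log2 changes were -0.18 ± 0.21 (adjusted p = 0.709) and 0.31 ± 0.21 (adjusted p = 0.513). Sites 3416 and 9536 behaved more like 14744: 3416 fell by 0.70 ± 0.20 with STAU1 (adjusted p = 0.0433) and by 0.91 ± 0.21 with GFP (adjusted p = 0.0103), and 9536 was -0.62 ± 0.18 with STAU1 (adjusted p = 0.0511) and fell by 0.78 ± 0.19 with GFP (adjusted p = 0.0149). Site 13044 fell in both, by 0.88 ± 0.22 (adjusted p = 0.018) and 0.80 ± 0.22 (adjusted p = 0.036). Each call at 3416, 9536 and 13044 was lost without either replicate of its own pull-down (adjusted p from 0.0543 to 0.322). Sites 11540 and 11971, opposite the ND4 gene by textbook maps, passed the test in neither.

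**Figure D3:**
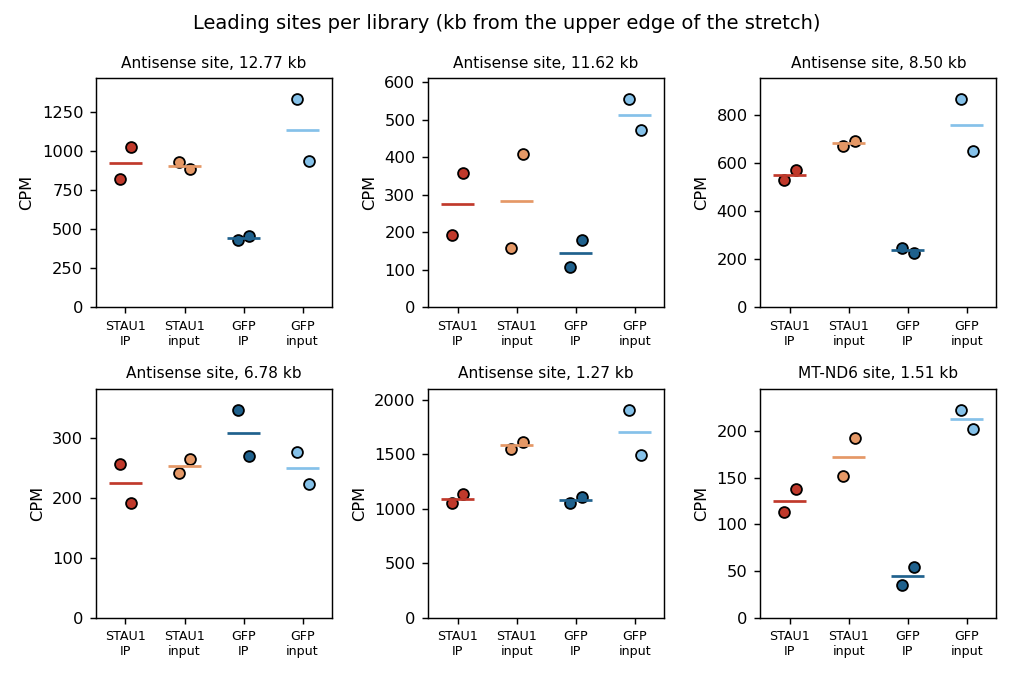
Level in CPM of 5 antisense ends and of the strongest regrouped MT-ND6 end, 1 panel each, named by their distance from the upper edge of the stretch (12.77 kb is site 3250, 11.62 kb is 4402, 8.5 kb is 7516, 6.78 kb is 9244, 1.27 kb is 14744 and 1.51 kb is the MT-ND6 end 14505); points are libraries and lines the mean of 2. In the panels at 12.77, 8.5 and 1.51 kb the GFP pull-down libraries lie lowest, while at 1.27 kb both pull-downs lie below their inputs by like amounts.

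Windows of 1000 nt showed where along the strand the pull-downs lost reads, on the TMM scale. The window 15000 to 15999, next to the upper edge of the stretch, had the lowest value with STAU1, a fall of 1.11 ± 0.15 (adjusted p = 0.00018). It stood at 721 and 717 CPM in the STAU1 pull-downs against 1472 and 1604 in their inputs. With GFP it fell by 0.88 ± 0.15 (adjusted p = 0.00148), from 1589 and 1323 CPM in input to 792 and 761. Against the mitochondrial plus strand no window passed the test as lower, and 15 antisense windows with STAU1 and 12 with GFP passed it as higher. That scale moves the median of all rows above 0 as well, by the amounts given in the last section. The shares of all rows called on it are not given here, so these counts are not a result about the windows alone. The short window 14681 to 14999 fell by 0.53 ± 0.15 with STAU1 (adjusted p = 0.0464) and by 0.55 ± 0.15 with GFP (adjusted p = 0.0389).

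Further along, the windows 10000 to 12999 stayed near 0 in both pull-downs, between -0.04 and 0.19 with STAU1 and between -0.07 and 0.08 with GFP. These windows hold RNA complementary to ND4 and ND5 by textbook maps. The windows led by 7516, 4402 and 3250 fell with GFP, by 1.03 ± 0.16 (7000 to 7999), 1.63 ± 0.29 (4000 to 4999) and 1.10 ± 0.17 (3000 to 3999), and stood at -0.12, -0.23 and -0.14 with STAU1. Their double ratios of 0.90, 1.41 and 0.95 missed the threshold (adjusted p = 0.0851, 0.138 and 0.0754). In all, of 17 antisense windows 2 fell with STAU1 and 5 with GFP and none rose, where 3.25% and 3.99% of all rows of that fit fell and 3.28% and 2.39% rose. In the double ratio no window passed in edgeR, where 0.504% of all rows were higher and 0.2% lower. At an unadjusted p under 0.05 (edgeR) there were 4 antisense windows, all above 0, as was the median of all tested sites. DESeq2 called 2. The shares of all rows at that unadjusted threshold and by DESeq2 are not given here. These counts are therefore not a result about the windows alone.

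**Figure D4:**
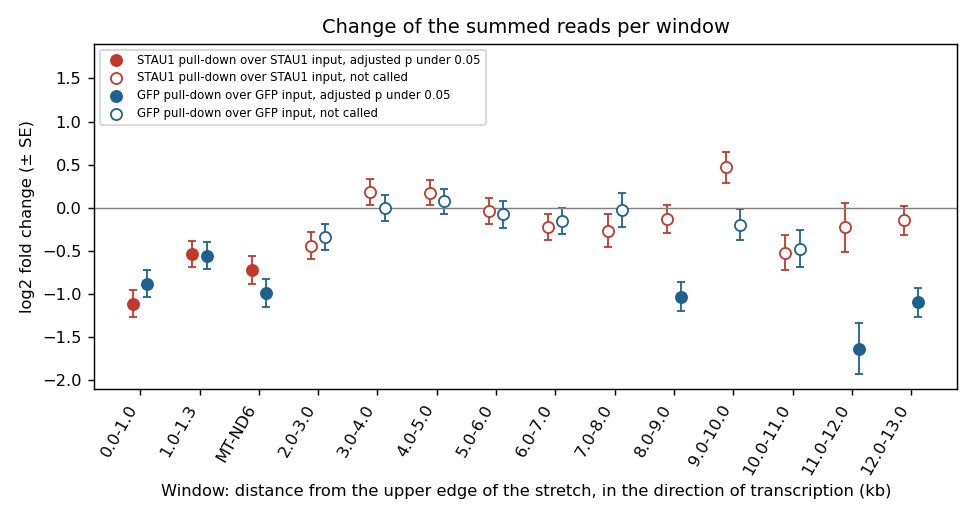
Log2 change of the summed reads per window, pull-down over input, with its SE, for STAU1 (red) and GFP (blue); filled points have an adjusted p under 0.05 (edgeR), and the x axis gives each window's distance in kb from the upper edge of the stretch, MT-ND6 being its own window (windows with under 1000 reads are not drawn). On the TMM scale both pull-downs are low in the windows nearest the upper edge and near 0 in the middle, and beyond 8 kb 3 windows are low with GFP only. Against the mitochondrial plus strand, a scale that moves the median of all rows above 0, no window passed the test as lower.

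Among regrouped ends, the window 15000 to 15999 held 14 of the 27 that fell with STAU1. Of its 29 tested ends, 14 fell with STAU1, where 3.32% of all rows were lower and 3.3% higher, and 8 fell with GFP, where 4.32% were lower and 2.26% higher. None rose, and 27 had a value below 0 in each. The median of its ends was -0.95 with STAU1 and -0.85 with GFP. The share of all rows below 0 is not given here, and neighbouring ends in the same libraries are not replicates. The strongest of them, 15529, stood at 69.1 and 72.2 CPM in the STAU1 pull-downs against 194 and 181 in their inputs, a fall of 1.42 ± 0.20 (adjusted p = 0.000234), and at 100.2 and 88.9 CPM in the GFP pull-downs against 177 and 166, a fall of 0.86 ± 0.21 (adjusted p = 0.015). The fall with GFP was lost without either GFP pull-down replicate (adjusted p = 0.0838 and 0.13) and without replicate 1 of the GFP input (0.0538). The end at 15396 fell by 1.36 ± 0.24 and 1.06 ± 0.25, and that at 15955 by 1.20 ± 0.24 and 1.35 ± 0.25. The end at 15652 fell with GFP by 1.11 (adjusted p = 0.00471) and was -0.69 with STAU1 (adjusted p = 0.0682).

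Counted as deposited sites, 3 members were higher and 22 lower in the STAU1 pull-down, where 3.06% of all tested sites were higher and 2.99% lower. With GFP 1 member was higher and 23 lower, where 2.11% and 3.99% of all were. Among the 1794 tested members both counts of lower sites are smaller shares than those backgrounds. In the double ratio 2 members were higher and 0 lower, where 0.53% and 0.157% of all were. Between the 2 inputs no member passed the test, where 0.00889% of all sites were higher in the STAU1 input and none lower (edgeR). At an unadjusted p under 0.05 (edgeR) 19 members were higher and 32 lower there, and DESeq2 called 0 in each direction. The share of all sites at that unadjusted threshold is not given here, so these 2 counts are not a result about the members. The median tested member stood at -0.29 with STAU1 and -0.47 with GFP, against 0.12 and -0.16 for the median of all sites. Of the 22 lower with STAU1 and the 23 lower with GFP, 7 were the same (31.8% and 30.4% of each list), and 19 and 17 of them lay above the position where grouping stops. Regrouped, 2 of 306 ends were higher and 27 lower with STAU1, where 3.3% and 3.32% of all rows were. With GFP 1 was higher and 26 lower, where 2.26% and 4.32% of all rows were. Of the lower ones 14 were the same (51.9% and 53.8%). How many lower calls the 2 pull-downs share over all rows is not given here. The overlaps are therefore not a result about the members alone. In the double ratio 3 regrouped ends were higher, 3250, 7516 and 14505, where 0.599% of all rows were, and 0 were lower, where 0.179% were.

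Few ends were higher in a pull-down. Site 6645 stood at 23.0 and 15.5 CPM in the STAU1 pull-downs against 1.08 and 4.09 in their inputs, a rise of 2.85 ± 0.69 (adjusted p = 0.0162), and at 7.60 and 2.92 CPM with GFP against 4.97 and 6.67. Site 7245 stood at 41.6 and 76.4 CPM against 19.4 and 29.5, a rise of 1.26 ± 0.36 (adjusted p = 0.0427), and at 19.4 and 17.5 with GFP against 26.0 and 43.8. Their double ratios of 2.99 and 2.18 missed the threshold (adjusted p = 0.213 and 0.0674). Site 11431, which lies outside the naming rule and was singled out after its values were seen, had 43 and 24 reads in the STAU1 pull-downs and 0 in both STAU1 inputs, at least 25.6-fold higher against a floor of 3 reads over both inputs. With GFP, 10976 rose by 2.61 ± 0.64 (adjusted p = 0.0178), from 2.56 and 2.18 CPM to 13.1 and 16.0. Each of the rises at 6645, 7245 and 10976 was lost on leaving out a library of its own contrast: replicate 1 of the STAU1 pull-down (adjusted p = 0.127) or input (0.0942) for 6645, replicate 2 of the STAU1 pull-down (0.589) or replicate 1 of the input (0.314) for 7245, and any of the 4 GFP libraries (0.0667 to 0.192) for 10976.

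Several calls rested on sites with no read at all in a pull-down. In the STAU1 pull-downs both libraries had 0 reads at 15177, 15526 and 15798 in the window 15000 to 15999 and at 14324 and 14362 in MT-ND6. Site 15177 had 112 and 7 reads in the STAU1 inputs, so it was at least 34.6-fold lower against a floor of 3 reads over both pull-downs, but replicate 1 of the input carried nearly all of it. Site 14324 had 42 and 18 reads in the inputs and was at least 17.4-fold lower, and 14362 had 25 and 34 and was at least 17.2-fold lower. Site 15526 had 45 and 15 reads in the STAU1 inputs and 15798 had 82 and 18. In the GFP inputs 15798 had 0 and 3. Site 14324 also had 0 reads in both GFP pull-downs, against 33 and 29 in the GFP inputs (adjusted p = 0.129, edgeR). The others of these sites had at least 1 read in the GFP pull-downs. With GFP, 14520 had 0 reads in both pull-downs and 39 and 68 in the inputs, at least 6.78-fold lower. Site 15680 had 0 and 1 reads in the GFP pull-downs against 105 and 100 in the inputs. Sites 14490 and 14497, both part of the end regrouped at 14505, had 4 and 1 and 4 and 2 reads in the GFP pull-downs against 97 and 108 and 99 and 118 in the inputs. All of these calls were lost on leaving out a library. Without replicate 1 of the STAU1 input the adjusted p was 0.143 at 15177, 0.11 at 15526, 0.669 at 15798 and 0.0677 at 14324. Without replicate 1 or 2 of the STAU1 pull-down it was 0.111 and 0.089 at 15526, 0.0718 and 0.0569 at 15798, 0.117 and 0.0933 at 14324 and 0.206 and 0.171 at 14362. Without replicate 1 or 2 of the GFP pull-down it was 0.21 and 0.139 at 14520 and 0.0694 and 0.153 at 14497, and without replicate 2 of the GFP input 0.156 and 0.0891. Site 15680 lost its call without replicate 1 (0.0639) and 14490 without replicate 2 (0.147) of the GFP pull-down.

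The tagged protein that was expressed made little difference to the input. MT-ND6 changed by -0.03 ± 0.16 and the antisense sum by -0.07 ± 0.13 in the STAU1 input over the GFP input (adjusted p = 1 for both, edgeR), and no window or regrouped end passed the test, where 0.00938% and 0.00941% of all rows were higher and 0% lower; 1 antisense window and 8 regrouped ends were lower and 3 regrouped ends higher at an unadjusted p under 0.05, and DESeq2 called 0. The shares of all rows at that unadjusted threshold are not given here, so these counts are not a result about the members. The largest gap among the leading sites was at 4402, with 156 and 408 CPM against 555 and 471. Its log2 change of -0.86 ± 0.34 did not pass, and replicate 1 of the STAU1 input was the low library.

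In the fractions each group is a single library, so the differences below have no replicate check and no test, and the intervals are 95% counting intervals (exact binomial) that cover counting error only. The stretch was much weaker there than in the lysates. Antisense sites made up 0.413% of the wild-type and 0.460% of the knockout cytoplasmic library, and 0.102% and 0.175% of the polysomal ones. Per 100 plus-strand reads there were 2.38 to 4.85 antisense reads. The 2 tables were scaled separately, and how much of the mitochondria a fraction holds was not measured. The order of the leading ends also differed from that in the lysates: 3250 led in all 4 fraction libraries, with 648 and 746 CPM in the wild-type and knockout cytoplasm, 4402 came next with 289 and 411 CPM, and 14744, first in all 8 pull-down and input libraries, stood at 166 and 269 CPM.

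The MT-ND6 segment was lower in polysomes than in cytoplasm in both genotypes. The segment stood at 414 CPM in wild-type cytoplasm and 146 in wild-type polysomes, a log2 ratio of -1.51 (-1.67 to -1.34), and at 429 and 166 CPM in the knockout, a ratio of -1.37 (-1.51 to -1.23). The difference between genotypes was 0.14 (-0.07 to 0.35), within counting error. The plus strand had log2 ratios of -1.54 and -1.66, so MT-ND6 lay close to it, and when scaled to plus-strand reads its ratios were 0.03 and 0.29, the opposite sign.

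The antisense sites differed between the genotypes by more than counting error. They stood at 4691 CPM in wild-type and 4736 in knockout cytoplasm, a log2 difference of 0.01 (-0.02 to 0.05). In polysomes they stood at 969 and 1573 CPM, 0.70 higher in the knockout library (0.63 to 0.76). The polysome over cytoplasm ratio was therefore -2.28 (-2.33 to -2.22) in the wild type and -1.59 (-1.63 to -1.55) in the knockout, a difference of 0.69 (0.61 to 0.76). The minus-strand sites outside the stretch, between it and the ends of the chromosome, differed by 0.67 (0.64 to 0.70), but from other changes. They were lower in the knockout in both fractions, by -1.24 (-1.25 to -1.23) in cytoplasm and -0.57 (-0.60 to -0.54) in polysomes. In that set 1 site held 83.9% of the fraction reads, so its values mostly describe 1 end. The plus strand, where 10 sites held 87.5% of the fraction reads, differed by -0.12. Against the plus-strand reads the ratios were -0.73 and 0.07, so the sign of the knockout value depends on the scale while the order of the genotypes does not.

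**Figure D5:**
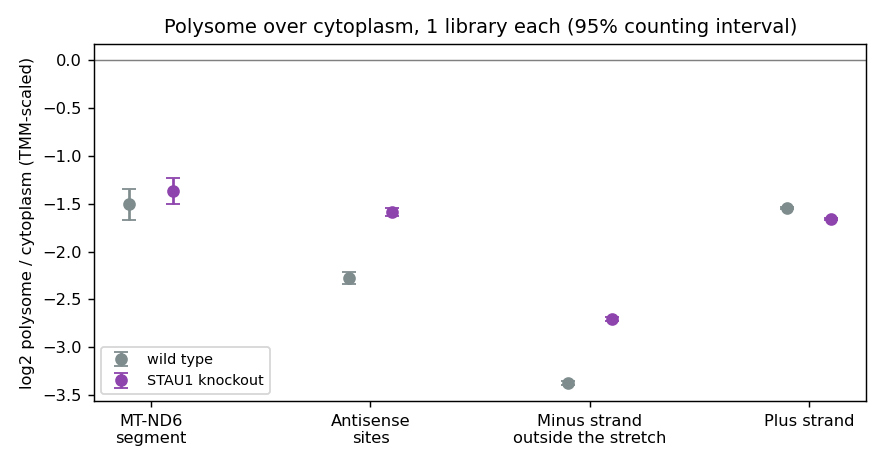
Log2 ratio of polysomal to cytoplasmic level (TMM-scaled) for the MT-ND6 segment, the antisense sites, the minus strand outside the stretch and the plus strand, in wild type (grey) and STAU1 knockout (purple), from 1 library per fraction; error bars are 95% counting intervals. The ratios of the 2 minus-strand sets other than MT-ND6 lie 0.69 and 0.67 higher in the knockout. For antisense the polysomal level is higher (0.70), and for the outside set the cytoplasmic one is lower (-1.24). In the outside set 1 site holds 83.9% of the reads. MT-ND6 and the plus strand differ by 0.14 and -0.12. Scaled to plus-strand reads, the MT-ND6 values and the knockout antisense value are above 0.

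At single sites, 8 members, all antisense, had at least 50 reads in each of the 4 libraries. More than 2-fold lower in polysomes were 7 of them in the knockout, where 4.68% of 4766 sites were, and 8 in the wild type, where 5.83% were. More than 2-fold higher were 0, where 1.72% and 2.52% of sites were. Of 39 mitochondrial plus-strand sites with as many reads, 25 (64.1%) were more than 2-fold lower in the knockout and 23 (59.0%) in the wild type. The fall was thus not particular to the members. Their ratios ran from -2.65 to -0.35 in the knockout and from -3.26 to -1.31 in the wild type, 3416 being the lowest and 13231 the highest in both. In polysomes 2 of the 8 were more than 2-fold higher in the knockout than in the wild type, where 1.03% of sites were higher and 1.2% lower: 14744 by 1.67 (1.26 to 2.10), with 20.7 CPM in the wild type and 66.0 in the knockout, and 7516 by 1.14 (0.80 to 1.50), with 31.9 and 70.4 CPM. Site 4402 lay at the edge with 1.00 (0.70 to 1.31), from 42.4 to 84.8 CPM, and 3250 differed by 0.45 (0.30 to 0.59), from 206 to 281 CPM. None of the 8 passed 2-fold between the cytoplasms, where 1.57% of sites were higher and 2.35% lower. With at least 20 reads in each library, 26 members could be read: 15 were more than 2-fold lower in knockout polysomes (5.7% of 8234 sites, and 2.33% higher), 22 in wild-type polysomes (7.21%, and 3.42% higher), 5 were higher in knockout than in wild-type polysomes (1.63%, and 2.16% lower), and 0 passed 2-fold between the cytoplasms (2.44% higher and 3.46% lower). Between the cytoplasms 14744 was 0.70 and 7516 was 0.60 higher in the knockout, and 3416 was -0.79. The regrouped end at 14505, the one MT-ND6 end with 50 reads in each library, stood at 115 and 97.2 CPM in the cytoplasm and 42.1 and 37.4 in the polysomes of wild type and knockout, a ratio of -1.46 and -1.38.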

How the data were processed

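Poly(A) sites were sequenced by 3'READS+. The submitters' processing notes name STAR and the build hg19. Versions, and how reads shared with nuclear copies of mitochondrial DNA were treated, are not given in the sources used here. In both tables the deposited values are whole-number read counts per site and library, not normalized. Members, lists and tests were chosen with earlier results of these data known. Counts were tested with edgeR 4.0.16 (R 4.3.3): TMM scaling, filterByExpr by group, 1 model over the 4 pull-down and input groups with 4 residual degrees of freedom, the quasi-likelihood test and Benjamini-Hochberg adjustment over all sites tested. The double ratio is the STAU1 change minus the GFP change. Segment, window and regrouped counts replaced the members' sites in refits of the whole table. DESeq2 1.42.0 was an alternative. Scripts were tested on simulated data. Named sites were those of the rule, the 10 antisense and 5 MT-ND6 sites with the most reads, the 5 largest changes each way among calls, and all double-ratio calls. Regrouping was added after the data were seen, and regrouped ends and fraction sites outside that rule were named after their values were seen. Nuclear genes of the pathway were not analysed here, since no gene table of the files' build was used.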

Additional observations from a re-analysis of the deposited data

Results flagged for a closer look

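The STAU1 and GFP changes differed at 3 ends by the test of the difference itself (edgeR's quasi-likelihood test with Benjamini-Hochberg adjustment over all rows). These were 2 of 1794 tested member sites, where 0.53% of all sites were called higher. After regrouping they were 3 of 306 tested ends, where 0.599% of all rows were called higher. At site 3250 the double ratio was 1.38 (adjusted p = 0.0171), and over its alternatives it ran from 1.21 to 1.65 with an adjusted p of at most 0.0359. At site 7516 it was 1.37 (adjusted p = 0.0141) and ran from 1.21 to 1.60, with an adjusted p above 0.05 without replicate 2 of the GFP pull-down (0.0529) and at most 0.0286 otherwise. At the regrouped MT-ND6 end 14505 it was 1.78 (adjusted p = 0.0147) and ran from 1.49 to 2.19, with an adjusted p of at most 0.0377. At all 3 ends both GFP pull-down libraries lay below the other 6 libraries, and these libraries are the shallowest of the 8; the part of depth in the result was not tested.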

How the results depend on the processing

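Counts are of member sites or antisense windows, changes are log2, and leaving out a library leaves its group with 1, assumed to vary like the others, in fits that test more rows. The shares of all rows called under each alternative are not given in this section. Its counts therefore do not tell a change of the members from a shift of the whole table. Scaling to mitochondrial plus-strand reads, which moves the median of all rows to 1.59 with STAU1 and 1.37 with GFP, turned the sign of MT-ND6 (0.76 with STAU1, 0.52 with GFP) and of the antisense sum (1.23, 1.03), and gave 15 higher and 0 lower windows with STAU1 and 12 and 0 with GFP. On that scale regrouped ends also turned, with STAU1 and GFP in this order: 3416 (0.77, 0.62), 9536 (0.85, 0.77), 14110 (0.32, 0.35), 14251 (0.40, 0.37), 14328 (0.48, 0.50), 14744 (0.93, 0.87), 15396 (0.12, 0.47), 15529 (0.061, 0.68) and 15955 (0.28, 0.19). With STAU1 alone 13044 (0.75) and 14608 (0.27) turned, and with GFP alone 3250 (0.17), 14558 (0.40) and 15652 (0.42).

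With STAU1, sites numbered 6 higher and 34 lower by DESeq2, 0 and 12 with no filter, and 0 and 6 with the contrast's libraries alone. Higher windows numbered 1 by DESeq2, on library totals and at 500 nt, and lower ones 1 on library totals, with the contrast's libraries alone and at 2000 nt. The antisense sum was -0.49 with no filter. With GFP, higher sites numbered 3 by DESeq2, on library totals and with the contrast's libraries alone, and 0 with no filter; lower sites numbered 14 with RLE factors and 8 on library totals. Windows numbered 1 higher with the contrast's libraries alone, and 9 lower with no filter and 3 without the leading site. The antisense sum with GFP was -0.36 with RLE factors, -0.20 on library totals, -0.42 with at least 10 reads in 2 libraries and -0.40 with the contrast's libraries alone. In the double ratio, higher sites numbered 4 by DESeq2 and with no filter, lower ones 1 by DESeq2, and higher windows 2 by DESeq2 and 3 with no filter; the antisense sum was 0.47 with no filter. Between inputs MT-ND6 was 0.025 on library totals. Same-numbered libraries did not deviate together (correlations from -0.02 to 0.02), so the numbers were not taken as pairs; with the replicate block the double ratio called 5 higher sites and 3 higher windows. Over single named sites 692 of the alternative values kept direction and side of the threshold and 140 lost the call. The causes were not tested.

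Leaving out 1 library at a time, STAU1 calls ran from 0 to 49 higher and from 6 (without pull-down replicate 1) to 65 lower sites, and windows from 0 to 1 higher and 1 to 3 lower. GFP calls ran from 0 to 3 higher and from 12 (without GFP pull-down replicate 1) to 47 lower sites (without either STAU1 input). The double ratio ran from 2 to 47 higher and 0 to 11 lower sites and from 0 to 3 higher windows, and the inputs from 0 to 5 higher and 0 to 20 lower sites and from 0 to 2 lower windows. The values 49, 65, 47, 11, 5 and 20 came without replicate 2 of the STAU1 input. MT-ND6 with STAU1 ran from -0.94 to -0.58, the antisense sum with GFP from -0.71 to -0.49, and MT-ND6 between inputs from -0.24 to 0.10.

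In the fractions, polysome over cytoplasm in the knockout was -1.17 for MT-ND6 and -1.39 for antisense on library totals and 0.29 and 0.069 against the plus strand; in the wild type -1.25 and -2.02, then 0.034 and -0.73, and antisense was -2.40 without the leading site. Sites past 2-fold were 1 higher and 0 lower in the knockout and 3 lower in the wild type against the plus strand, and 15 and 22 lower with at least 20 reads. Knockout over wild type in cytoplasm was 0.19 and 0.16 on library totals and 0.26 and 0.22 against the plus strand, and in polysomes 0.52 for MT-ND6 against the plus strand and 0.78 (library totals) and 1.03 for antisense, with 4 sites higher against the plus strand and 5 with at least 20 reads. Without the leading site the shares of the library were 0.0596% for MT-ND6 in the GFP pull-down, and for antisense 0.960% and 1.00% in the STAU1 pull-down and input and 0.894% in the GFP pull-down.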
